A study of Mus musculus with 40 samples.

Results

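Neurons fire through channels that open and close with the membrane voltage: sodium channels carry the upstroke of the action potential, calcium channels couple it to transmitter release, and potassium channels end it and set the resting state. A potassium channel is built from pore-forming subunits, in some families with modifier subunits that alter a partner pore, and with auxiliary subunits that steer gating and surface delivery; calcium and sodium channels also carry auxiliary subunits. In the hippocampus these genes set spike threshold, firing pattern and dendritic excitability, and laboratory mouse strains differ in seizure threshold and in responses to drugs that act on such channels.

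The channel genes described here are those whose platform symbol begins with Kcn, Cacna, Cacnb or Cacng, or with Scn or Hcn followed by a digit. They had 168 probes for 110 genes among the 25697 probes of an Illumina mouse Ref-8 expression array. A probe entered the comparisons when its detection score was at least 0.99 on at least 4 of the 40 arrays, which held for 92 channel probes of 72 genes and for 13589 probes in all. Of the 92, 63 were detected on all 40 arrays. The other 76 channel probes were not tested, and 38 genes had no tested probe, among them Cacna1c, Kcnn2 and Kcnd3. A probe that passed because it was detected in only some groups is named with its number of detecting arrays.

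Each array held hippocampal RNA of 1 mouse aged 12 months, and there were 8 groups. The DBA-rich Tg group had 7 mice with 75% DBA, 16% B6 and 9% SJL background, and the 50% DBA Tg group had 3 mice with 42% SJL and 8% B6 background. The B6-rich Tg group had 6 mice (62.5% B6, 37.5% SJL), the SJL-rich Tg group 6 (69% SJL, 31% B6) and the SJL-richest Tg group 6 (84% SJL, 16% B6), all with 0% DBA. All 28 Tg mice had a transgene for the amyloid precursor protein (labelled APP Tg), whose promoter and line are not given in the sources used here. Finally, 3 groups were non-transgenic inbred DBA (labelled dba2), SJL and B6 mice, 4 of each. Arrays 1 to 16 of the titles' running number held the 50% DBA, B6-rich and SJL-richest Tg mice and 1 DBA-rich mouse, and arrays 17 to 40 held the rest, so groups were compared within these sets. The inbred SJL mice were all on arrays 33 to 40, while inbred B6 mice were spread over arrays 29 to 36 and inbred DBA mice over 31 to 38. SJL-rich Tg arrays stood below the pooled B6-rich and SJL-richest arrays by a median of -0.14 (log2) over the channel probes and -0.08 over all tested probes, and array set and background cannot be told apart there.

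The deposited files disagree on the strain of some inbred mice, which touches every inbred value below. The non-normalized table, read by running number, and the authors' value table, read by accession, hold the same data for all 28 Tg arrays, but 8 of the 12 inbred arrays match a different sample, and 6 of these change strain. Klc1, a kinesin light chain gene that the series' design text singles out, was used to look at this with its probe ILMN_2605756. By running number it was at 8.74 to 9.25 log2 intensity in the inbred DBA mice, 12.33 to 12.49 in SJL and 12.27 to 12.39 in B6, and in the DBA-rich Tg mice it was at 8.44 to 8.91 in 5 of 7. Klc1 thus parted DBA from the other strains by running number, which was used for all strain values. SJL and B6 mice overlapped on this probe. It therefore could not decide for SJL mice 1 and 2, which are B6 mice by accession. With strains taken by accession from the value table, 0 of 92 channel probes were called in any of the 3 inbred pairs. That count is given without the share of all probes, so it is no result about channel genes in particular. Both tables give the same strain to 6 inbred mice, DBA mice 1 and 2, SJL mice 3 and 4 and B6 mice 3 and 4, and whether a call held in these 6 alone is given beside the main genes.

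Marker levels described the tissue. Excitatory neuron, interneuron, astrocyte, oligodendrocyte and microglia genes were detected in every group, except for 1 microglia gene in B6-rich and in SJL-richest Tg mice. Choroid plexus genes were also present and varied widely within groups, with a summed linear intensity over 8 markers of 3515 to 51708 in DBA-rich Tg mice and 5330 to 49473 in inbred B6 mice.

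The first comparison asked which channel genes differ between inbred DBA and B6 hippocampus. In DBA mice the G protein-gated inward rectifier gene Kcnj9 was higher, and the voltage-gated genes Kcnh1, Kcnf1 and Kcns1 were lower. Normalised log2 intensity of Kcnj9 (ILMN_1242415), whose product slows firing after transmitters such as GABA bind their receptors, was 7.65, 7.38, 7.74 and 7.47 in the 4 DBA mice and 6.15, 5.88, 6.07 and 5.94 in the 4 B6 mice. Every DBA mouse was above every B6 mouse, a 2.94-fold difference (log2 change 1.55 with an SE of 0.13, limma adjusted p = 2.77e-06). Kcnj9 was also higher in inbred SJL mice, with 6.94, 7.18, 7.49 and 7.56, than in B6 mice (log2 change 1.28 with an SE of 0.13, limma adjusted p = 1.76e-05). Thus B6 mice had the lowest Kcnj9 level of the 3 strains, with no overlap, while DBA and SJL mice overlapped. Both calls held in the 6 mice of undisputed strain, with log2 changes of 1.52 in each.

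With limma and Benjamini-Hochberg adjustment over all 13589 probes at 0.05, 12 of 92 channel probes (13.0%) differed between DBA and B6 mice, against 12.3% of all probes. Of the 12, 7 were higher in DBA mice (5.93% of all probes were) and 5 lower (6.37% of all). The median log2 change was 0.05 over the channel probes and 0.04 over all tested probes. The 3 inbred pairs share arrays, so a gene called in 2 of them has no independent second call. The channel genes thus differed between these strains about as often as other genes, and no broad shift in one direction was measured.

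Among pore-forming voltage-gated potassium genes, 1 of 15 probes was higher and 1 lower in DBA than in B6 mice. The lower one was Kcnh1 (ILMN_2668260), which encodes an ether-a-go-go channel. It measured 9.27, 9.19, 9.07 and 9.09 in DBA mice, 9.14, 9.28, 9.21 and 9.17 in SJL mice and 10.08, 9.80, 9.91 and 9.95 in B6 mice. All 8 DBA and SJL mice were below all 4 B6 mice, by 1.72-fold in DBA (log2 change -0.78 with an SE of 0.07, limma adjusted p = 7.98e-06) and 1.66-fold in SJL (log2 change -0.73 with an SE of 0.07, limma adjusted p = 1.45e-05). Both calls held in the 6 undisputed mice. Another Kcnh1 probe, ILMN_1244779, was detected on 1 array and not tested.

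The higher one was Kcnh3 (ILMN_2726397), an ether-a-go-go-like channel gene expressed in the forebrain, with 8.77, 8.69, 8.90 and 8.75 in DBA mice, 8.32, 8.39, 8.49 and 8.48 in SJL mice and 8.40, 8.33, 8.47 and 8.27 in B6 mice. The DBA mice stood above all 8 others, by 1.33-fold over B6 (log2 change 0.41 with an SE of 0.07, limma adjusted p = 0.00159) and 1.28-fold over SJL (log2 change 0.36 with an SE of 0.07, limma adjusted p = 0.00447). Neither call held in the 6 undisputed mice (adjusted p = 0.118 and 0.260, limma).

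Modifier subunits form no working channel alone and tune partner pores. Kcnf1 (ILMN_2657243), one of them, measured 8.80, 8.89, 9.34 and 8.82 in DBA mice, 9.54, 9.41, 9.71 and 9.45 in SJL mice and 9.97, 9.82, 10.07 and 9.85 in B6 mice. The strains did not overlap, with DBA lowest, SJL between and B6 highest. The DBA level was 1.96-fold below B6 (log2 change -0.97 with an SE of 0.12, limma adjusted p = 8.57e-05) and 1.48-fold below SJL (log2 change -0.56 with an SE of 0.12, limma adjusted p = 0.00685), and the SJL level was 1.32-fold below B6 (log2 change -0.40 with an SE of 0.12, limma adjusted p = 0.0405). DBA mouse 3, at 9.34, stood apart from the other DBA mice. In the 6 undisputed mice the 2 DBA calls held, and SJL against B6 did not (adjusted p = 0.194, limma).

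Kcns1 (ILMN_2715619), another modifier, was near the detection limit in DBA mice, where 1 of 4 arrays detected it, against 4 of 4 in SJL and in B6 mice. Its log2 intensity was 5.21, 5.51, 5.86 and 5.40 in DBA mice, 6.01, 5.99, 6.06 and 6.09 in SJL mice and 6.19, 5.91, 6.26 and 6.03 in B6 mice. The DBA mice lay below all others (log2 change -0.60 with an SE of 0.12, limma adjusted p = 0.00498 against B6; log2 change -0.54 with an SE of 0.12, limma adjusted p = 0.0101 against SJL). Both calls held in the 6 undisputed mice. Kcnv1 (ILMN_2796420), a further modifier gene, was higher in DBA than in B6 mice, 8.12 ± 0.15 against 7.67 ± 0.24 (SD, n = 4 each), with a log2 change of 0.45 (adjusted p = 0.0446, limma); it was not called in the undisputed mice (adjusted p = 0.145).

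The plot of 9 probes by mouse shows these levels in all 8 groups.

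**Figure D1:**
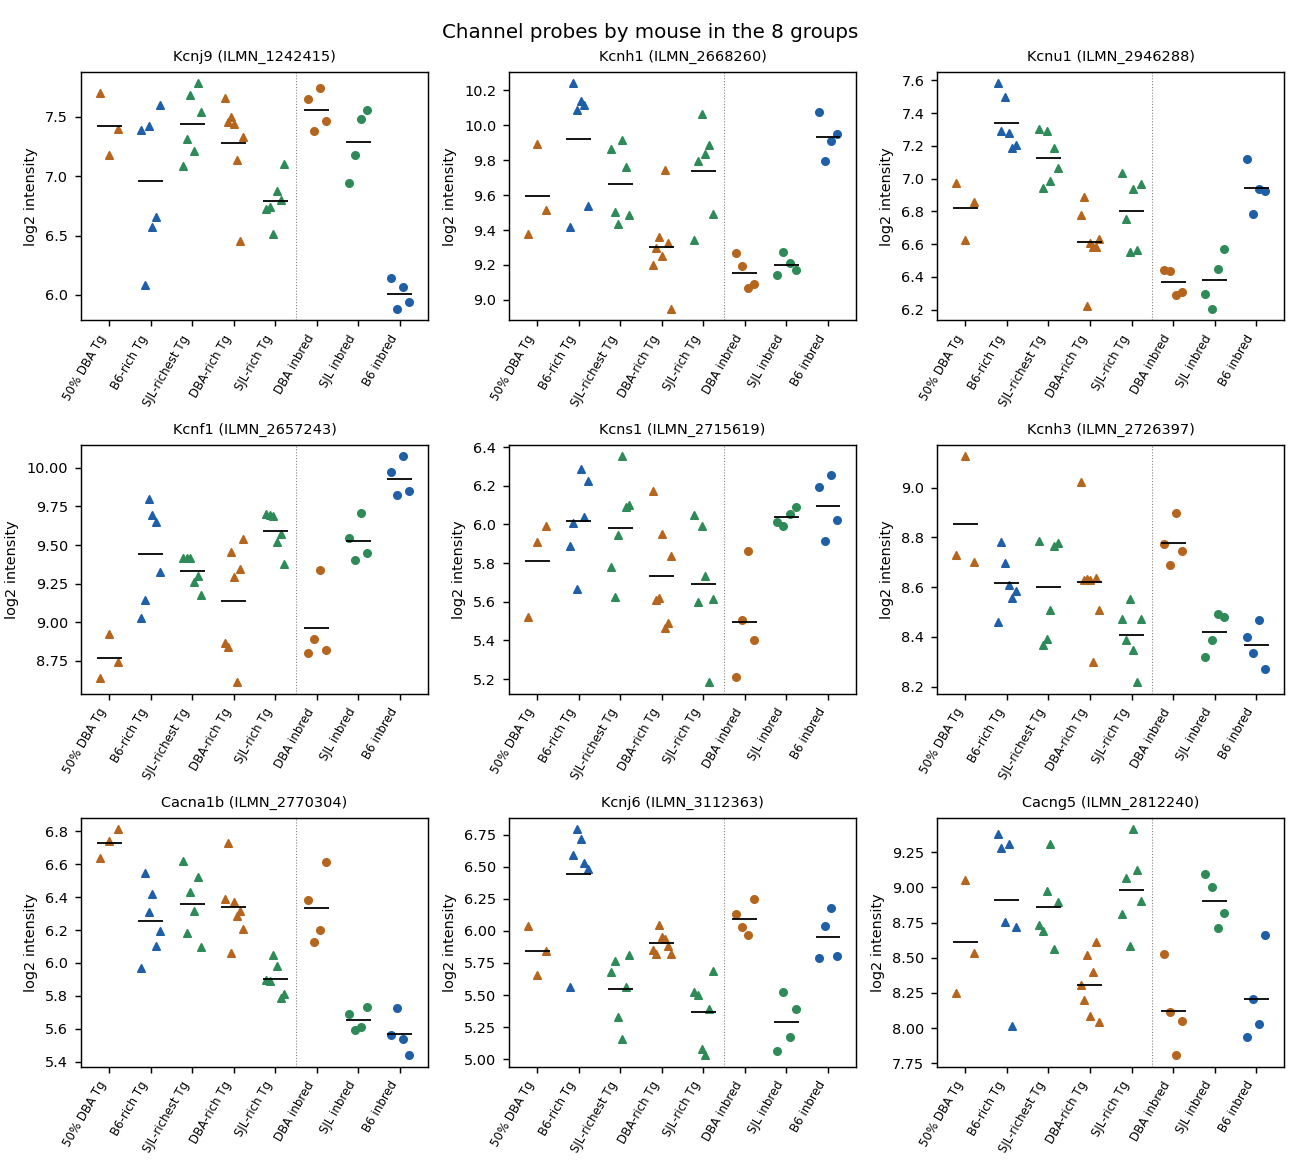
Normalised log2 intensity (vertical axis) of 9 channel probes in the 8 groups, 1 point per mouse, with triangles for Tg and circles for inbred mice and a black line at the group mean; the dotted line parts Tg from inbred groups. Among the 3 inbred strains, B6 mice sit lowest for Kcnj9 and highest for Kcnh1, Kcnu1 and Kcnf1, and DBA mice sit lowest for Kcnf1 and Kcns1 and highest for Kcnh3 and Cacna1b.

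Kcnu1 (ILMN_2946288), a large-conductance channel gene best known from sperm, was placed by its symbol alone in the family labelled calcium- or sodium-activated potassium. It measured 6.44, 6.44, 6.29 and 6.31 in DBA mice, 6.29, 6.20, 6.45 and 6.57 in SJL mice and 7.12, 6.78, 6.93 and 6.93 in B6 mice. All DBA and SJL mice were below all B6 mice (log2 change -0.57 with an SE of 0.09, limma adjusted p = 0.00105 for DBA; log2 change -0.56 with an SE of 0.09, limma adjusted p = 0.0012 for SJL). In the undisputed mice the DBA call held and the SJL one did not (adjusted p = 0.0674). Kcnn1 (ILMN_2664556), a small-conductance calcium-activated channel gene that helps shape the pause after a spike, moved the other way. It averaged 7.52 ± 0.20 in DBA mice and 7.45 ± 0.11 in SJL mice against 6.97 ± 0.14 in B6 mice (SD, n = 4 each), and both differences were called (adjusted p = 0.00384 and 0.00927, limma). Neither held in the 6 undisputed mice.

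Kcnmb4, the brain auxiliary subunit of the large-conductance channel, has 3 probes. Compared with B6 mice, SJL mice were higher on ILMN_3028187 (8.83 ± 0.06 against 8.52 ± 0.11) and ILMN_3101339 (9.20 ± 0.08 against 8.90 ± 0.12; SD, n = 4 each), by log2 changes of 0.31 and 0.30. The third probe, ILMN_2639207, was called only for DBA against SJL (log2 change -0.25 with an SE of 0.07, limma adjusted p = 0.0333). None of these 3 calls held in the undisputed mice, nor with consecutive runs of 8 arrays, read from the running number, fitted as a block. The pore gene of that channel, Kcnma1, was not called between strains, with log2 changes of 0.16 for DBA against B6, -0.01 for DBA against SJL and 0.17 for SJL against B6.

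Inward rectifiers held 2 of the 7 probes higher in DBA than in B6 mice, Kcnj9 and Kcnj16. Kcnj16 (ILMN_2613284), a subunit that pairs with other rectifiers and is sensitive to pH, measured 7.11, 7.14, 7.42 and 7.44 in DBA mice, 7.46, 7.31, 7.17 and 7.28 in SJL mice and 6.82, 6.64, 7.17 and 6.80 in B6 mice. DBA overlapped B6 through B6 mouse 3, and SJL stood just clear of it (log2 change 0.42 with an SE of 0.12, limma adjusted p = 0.0373 for DBA; log2 change 0.45 with an SE of 0.12, limma adjusted p = 0.0246 for SJL). Neither call held in the undisputed mice (adjusted p = 0.626 and 0.430).

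Kcnj6 (ILMN_3112363), the G protein-gated subunit whose loss makes mice seizure-prone, marked the SJL strain. It measured 6.13, 6.03, 5.97 and 6.25 in DBA mice, 5.06, 5.53, 5.17 and 5.39 in SJL mice and 5.79, 6.04, 6.18 and 5.81 in B6 mice. No SJL array detected it, while all 4 DBA and all 4 B6 arrays did, so DBA mice were at least 1.24-fold above SJL (log2 change 0.80 with an SE of 0.12, limma adjusted p = 0.000453), and SJL mice at least 1.12-fold below B6 (log2 change -0.66 with an SE of 0.12, limma adjusted p = 0.00197). These bounds set the brighter mean against whichever is higher on each SJL array: the probe's signal or the faintest one detected there. In the undisputed mice DBA against SJL held and SJL against B6 did not (adjusted p = 0.0554). The Kcnj6 probes ILMN_2720186, ILMN_3038066 and ILMN_3162725 were detected on 0, 1 and 0 arrays and not tested.

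Of the 2-pore potassium genes, which carry background leak, 1 of 11 probes was called in any inbred pair: the Kcnk4 probe ILMN_2625370 was lower in DBA than in B6 mice, 6.31 ± 0.26 against 6.78 ± 0.12 (SD, n = 4 each; adjusted p = 0.0366, limma). It was not called in the undisputed mice (adjusted p = 0.229).

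Among calcium channel genes, Cacna1b, the pore of the N-type channel at presynaptic terminals, was higher in DBA mice on 1 of its 2 tested probes. Another Cacna1b probe, ILMN_3033572, was detected on 2 arrays and not tested. ILMN_2770304 measured 6.38, 6.13, 6.20 and 6.62 in DBA mice, 5.69, 5.59, 5.61 and 5.73 in SJL mice and 5.56, 5.72, 5.54 and 5.44 in B6 mice. It was detected on all 4 DBA arrays, on 0 of 4 SJL arrays and on 2 of 4 B6 arrays, and no other strain's mouse reached the DBA range. The difference was at least 1.46-fold over SJL (log2 change 0.68 with an SE of 0.10, limma adjusted p = 0.000547) and a log2 change of 0.77 ± 0.10 over B6 (SE; adjusted p = 0.000179, limma), and both calls held in the undisputed mice. The second probe, ILMN_3107273, measured 5.77, 5.69, 5.76 and 6.04 in DBA mice, 5.89, 5.47, 5.95 and 6.20 in SJL mice and 5.31, 5.62, 5.61 and 5.53 in B6 mice. Its strains overlapped, with log2 changes of 0.30 against B6 and -0.06 against SJL, and neither was called.

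Cacng5 encodes a member of the transmembrane AMPA receptor regulatory proteins, which accompany glutamate receptors. On ILMN_2812240 it measured 8.52, 8.11, 7.81 and 8.05 in DBA mice, 9.09, 9.00, 8.71 and 8.82 in SJL mice and 7.94, 8.21, 8.03 and 8.66 in B6 mice. SJL stood above both other strains without overlap, so DBA was lower than SJL (log2 change -0.78 with an SE of 0.17, limma adjusted p = 0.00922) and SJL higher than B6 (log2 change 0.70 with an SE of 0.17, limma adjusted p = 0.0168). On the second probe, ILMN_2725698, both DBA and SJL mice were higher than B6 (log2 changes of 0.77 and 0.66; adjusted p = 0.0156 and 0.0336, limma). The probes therefore placed DBA mice differently, and none of the 4 calls held in the undisputed mice. Another Cacng5 probe, ILMN_1226821, was detected on 1 array and not tested. Cacna2d3, an auxiliary subunit that helps bring calcium channels to the surface, was higher in SJL than in B6 mice, 10.03 ± 0.11 against 9.71 ± 0.06 (SD, n = 4 each; adjusted p = 0.0398, limma). That call was lost in the undisputed mice and with runs of 8 arrays as a block.

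Between DBA and SJL mice, 11 of 92 channel probes (12.0%) were called, against 11.2% of all probes, 3 of them higher in DBA (5.84% of all probes) and 8 lower (5.37% of all). Besides the genes above, 1 probe each of 3 auxiliary potassium genes and of the M-current pore Kcnq3 was lower in DBA. Kcnab2 (ILMN_2724785), a beta subunit bound to shaker-type channels, measured 13.92, 13.78, 13.79 and 13.82 in DBA mice and 14.18, 13.96, 14.08 and 14.07 in SJL mice, without overlap (log2 change -0.25 with an SE of 0.07, limma adjusted p = 0.0333). The Kcnab1 probe ILMN_2618169, from the sister beta subunit, was 7.20 ± 0.16 against 7.67 ± 0.24, and Kcne1l, a single-pass auxiliary subunit, 6.80 ± 0.11 against 7.27 ± 0.18 (SD, n = 4 each), each a log2 change of -0.47. The brighter Kcnab1 probes ILMN_1216469 and ILMN_2915671, with means of 10.96 and 11.51 in DBA mice, were not called. Kcnq3, whose channel damps repetitive firing, was 5.78 ± 0.09 in DBA mice, detected in 2 of 4, against 6.12 ± 0.12 in SJL mice (SD, n = 4 each; log2 change -0.34). None of these 4 lower calls held in the undisputed mice, and Kcne1l and Kcnq3 were not called with runs as a block either.

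Between SJL and B6 mice, 15 of 92 channel probes (16.3%) were called, against 13.5% of all probes. In the direction higher in SJL it was 11 channel probes (12.0%), against 6.54% of all probes, and in the direction lower it was 4 (4.35%), against 7.01%. The median log2 change was 0.12 over channel probes and 0.03 over all tested probes. Kcne1l, Kcnq3 and Kcnip1, whose product binds the A-type potassium pores, were among the 11, with log2 changes of 0.45, 0.33 and 0.32. None of these 3 was called in the undisputed mice or with runs as a block. Single SJL or B6 mice moved this count: it was 7 without SJL mouse 1, B6 mouse 1 or B6 mouse 2, and 9 without SJL mouse 4 or B6 mouse 4. With runs of 8 arrays as a block 7 of the 15 calls held, 3 higher in SJL (5.61% of all probes) and 4 lower (6.00% of all). The larger share of higher calls was not seen in that fit. Since all inbred SJL mice were in the last run, strain and run are partly confounded for SJL. The fit took the run difference from DBA and B6 mice alone. In the 6 undisputed mice 2 of the 15 held, Kcnj9 and Kcnh1.

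In all, 23 channel probes of 20 genes were called in at least 1 inbred pair (25.0%), against 22.3% of all probes. The plot of log2 changes by family shows that the called probes were spread over the potassium and calcium families. No sodium channel, calcium beta or HCN probe was called between strains. The lowest adjusted p in each of these families was 0.0707 for the sodium pore gene Scn1a, 0.0967 for Hcn3 and 0.114 for Scn3b, all in DBA against SJL, and 0.108 for Cacnb1 in SJL against B6 (limma).

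**Figure D2:**
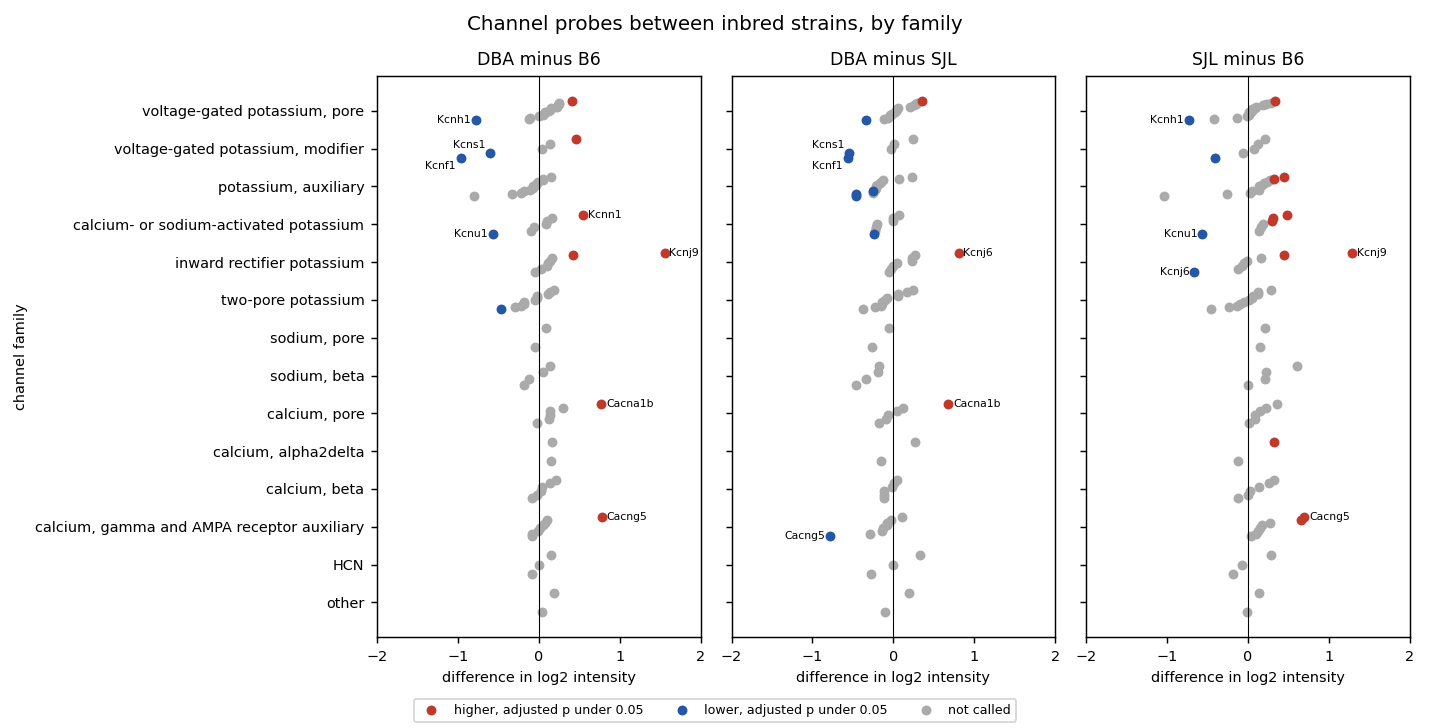
Difference in log2 intensity between inbred strains (horizontal axes) of the 92 channel probes, 1 point per probe, by family (vertical axis); red and blue points are higher and lower at an adjusted p under 0.05 (limma, 4 mice per strain), grey points are not called. Kcnj9 is the rightmost point in both comparisons with B6, at 1.55 and 1.28, and most points lie near 0.

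A set of 23 widely studied channel genes was followed whatever their values, and 15 of them had a tested probe. Except for Kcnab2 in DBA against SJL, none was called between inbred strains without a block. The sodium pores Scn1a and Scn8a, which start spikes in interneurons and at axon initial segments, had log2 changes of -0.05 and 0.09 for DBA against B6. The P/Q-type calcium pore Cacna1a had -0.02, the A-type potassium pore Kcnd2 0.07, the axonal pores Kcna1 and Kcna2 -0.11 and 0.25, the fast-spiking pore Kcnc1 0.15 and the pacemaker gene Hcn2 -0.08. Closest to a call otherwise were the Kcnc1 probe ILMN_2717814 in DBA against SJL (adjusted p = 0.0528, limma), Kcnab2 in DBA against B6 (0.0532), Scn1a in DBA against SJL (0.0707) and Kcna2 in DBA against SJL and against B6 (0.0773 and 0.0843). With runs as a block the first 2 of these were called (Kcnc1 adjusted p = 0.0496, Kcnab2 0.0469).

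Of 40 listed genes whose products partner these channels, 28 were measured. Among the 28, 1 was called for DBA against B6 (Amigo1, higher), 1 for DBA against SJL (Lgi3, lower) and 2 for SJL against B6 (Cntnap1 and Lgi2, higher). Of all probes, 12.3%, 11.2% and 13.5% were called in these pairs. Cell type markers moved in the same strain pairs. Of 9 measured oligodendrocyte genes, DBA mice were lower than B6 mice on 7 and SJL mice lower than B6 mice on 3. DBA mice were lower than SJL mice on 2. Of 5 measured excitatory neuron genes only Slc17a7, the vesicular glutamate transporter, was called. It was lower in DBA than in both other strains and higher in SJL than in B6. The median log2 change over the 5 was 0.06 for DBA against B6 and against SJL, where all tested probes had 0.04 and 0.01. Of 6 measured interneuron genes, Slc32a1, the vesicular GABA transporter, was lower in DBA than in both, and Npy was lower in SJL than in B6. Against B6, DBA mice were also lower on the interneuron gene Sst and higher on Vip. Of 7 measured CA1 and CA3 genes, Bok and Grik4 were lower in DBA than in both other strains. Iyd and Spink8 went the other way between DBA and SJL, and were lower in SJL than in both other strains. The dentate gyrus genes Prox1 and C1ql2 were lower in both strains than in B6, and the summed linear intensity of 3 dentate markers was 2748 to 3259 in DBA, 3097 to 3510 in SJL and 5862 to 6642 in B6 mice. Of 6 measured microglia genes, C1qa and C1qb were lower in DBA than in B6, and C1qb also in SJL. Of 7 astrocyte genes, Slc1a2 was higher in DBA than in both others and Fgfr3 higher in SJL than in B6. Of 5 thalamus genes, Ramp3 was higher in DBA and SJL than in B6 and Prkcd lower in DBA than in SJL. Of 7 vessel and pericyte genes, Pdgfrb was lower in DBA than in both others, and Rgs5 was higher in SJL than in both others. In whole hippocampus fewer cells of a type and less RNA per cell cannot be told apart, and the part of these markers in the channel results was not tested.

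The next question was whether strain differences are also found in Tg mice, which are separate animals on arrays of undisputed background. DBA-rich and SJL-rich Tg mice of arrays 17 to 28, 6 of each, differed on 4 of 92 channel probes (4.35%), against 7.23% of all probes. All 4 had been called in the same direction between inbred DBA and SJL mice. Kcnj6 had a lowest, median and highest log2 intensity of 5.82, 5.91 and 6.05 in DBA-rich mice and 5.03, 5.45 and 5.69 in SJL-rich mice, detected on 6 and 4 arrays. The groups did not overlap (log2 change 0.54 with an SE of 0.11, limma adjusted p = 0.00778). The Cacna1b probe ILMN_2770304 stood at 6.06, 6.30 and 6.73 in DBA-rich and 5.79, 5.89 and 6.05 in SJL-rich mice. Every DBA-rich mouse was above every SJL-rich mouse (log2 change 0.43 with an SE of 0.10, limma adjusted p = 0.0169).

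Kcnab2 stood at 13.82, 13.85 and 13.92 in DBA-rich and 14.01, 14.11 and 14.24 in SJL-rich mice, lower without overlap (log2 change -0.25 with an SE of 0.05, limma adjusted p = 0.0137), and the Cacng5 probe ILMN_2812240 at 8.04, 8.30 and 8.61 against 8.58, 8.99 and 9.41. The Cacng5 groups overlapped slightly (log2 change -0.67 with an SE of 0.14, limma adjusted p = 0.0104). The SJL-rich mice were all on arrays 18 to 23, and only DBA-rich mice 2 and 3, on arrays 17 and 24, shared their run of 8. A fit with runs as a block therefore set only these DBA-rich mice against the SJL-rich group. In it none of the 4 was called (adjusted p = 0.0860 for Kcnj6, 0.0943 for Cacna1b, 0.118 for Kcnab2 and 0.155 for Cacng5, limma). The log2 changes were 0.57, 0.49, -0.26 and -0.62. In that fit Kcnk13, a 2-pore gene, was the 1 channel probe called (log2 change -0.54, adjusted p = 0.0347).

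Of the 11 channel probes called between inbred DBA and SJL mice, 11 had the same sign between DBA-rich and SJL-rich Tg mice, where 92.4% of the 1523 probes called in all did. Called in both were 4 of the 11 (36.4%), against 41.8% of all. The plot of inbred against Tg differences shows the 92 probes. Kcnf1, lowest in inbred DBA mice, was lower in the Tg pair by a log2 change of -0.41 without passing the test (adjusted p = 0.116), Kcnh3 had 0.15, and Kcns1, at -0.03, was close to equal in the Tg groups.

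**Figure D3:**
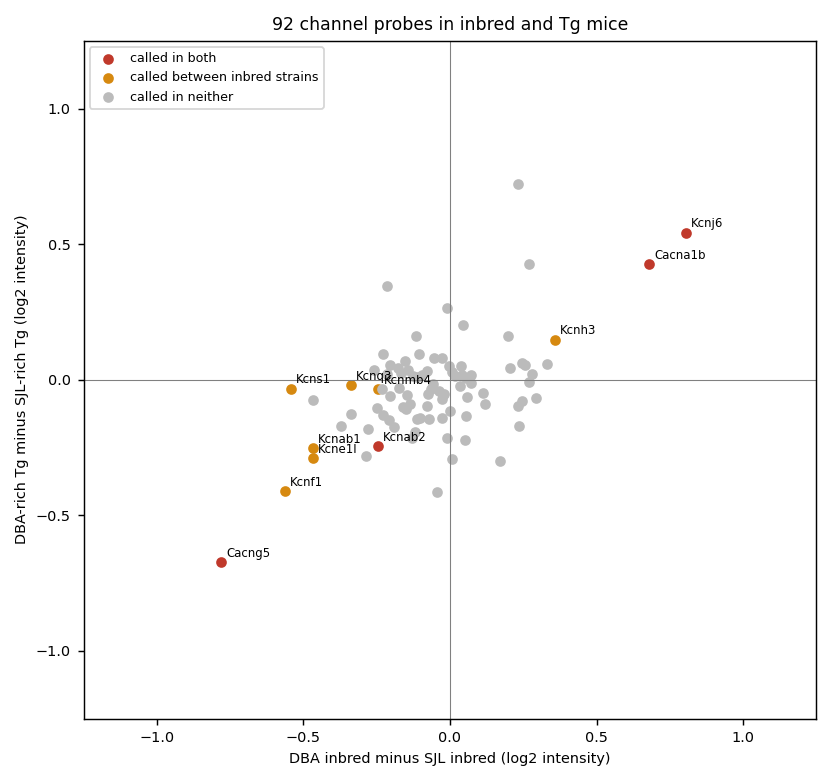
Difference in log2 intensity of the 92 channel probes between inbred DBA and SJL mice (horizontal axis, 4 mice each) and between DBA-rich and SJL-rich Tg mice (vertical axis, 6 mice each), 1 point per probe; red points are called in both, orange ones between inbred strains. The 4 red points, Kcnj6, Cacna1b, Kcnab2 and Cacng5, lie in the same quadrant by sign on both axes, and all 11 called inbred probes share their sign.

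In arrays 1 to 16, the 3 mice with 50% DBA and the 6 SJL-richest mice differed on 0 of 92 channel probes with limma, against 2.55% of all probes, and 12 channel probes (13.0%) had an unadjusted p under 0.05, against 16.1% of all probes. Kcnf1 came closest, at 8.64, 8.92 and 8.74 in the 50% DBA mice against a lowest, median and highest value of 9.17, 9.36 and 9.42 in SJL-richest mice. The groups did not overlap (log2 change -0.56, adjusted p = 0.0642). Kcnf1 passed with trended and robust variances (adjusted p = 0.0407), and Scn3b, a sodium channel beta subunit gene, passed without 50% DBA mouse 3 (log2 change -0.55, adjusted p = 0.0354). All 11 channel probes called between inbred DBA and SJL mice had the same sign here (82.5% of all such probes), and 0 were called (16.0% of all).

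B6-rich against SJL-richest Tg mice, 6 of each in the same arrays, differed on 1 of 92 channel probes, against 1.65% of all probes. It was Kcnj6, with 5.56, 6.56 and 6.79 as lowest, median and highest value in B6-rich mice and 5.16, 5.62 and 5.81 in SJL-richest mice, detected on 5 and 3 arrays. The groups overlapped only through B6-rich mouse 1, at 5.56, and the other 5 B6-rich mice were above every SJL-richest mouse (log2 change 0.90 with an SE of 0.18, limma adjusted p = 0.0302). With runs as a block the adjusted p was 0.0556. Against the 50% DBA mice, which carry 42% SJL background, SJL-richest mice did not differ on Kcnj6 by the test (50% DBA minus SJL-richest log2 change 0.30, adjusted p = 0.547, limma).

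Kcnj9, lowest in inbred B6 mice, ranged from 6.08 to 7.60 among B6-rich mice (7.39, 6.08, 7.42, 6.58, 6.66 and 7.60), a spread wider than that of any inbred strain. SJL-richest mice ranged from 7.09 to 7.78, and the difference was not called. Of the 15 channel probes called between inbred SJL and B6 mice, 11 had the matching sign between these Tg groups (73.3%), where 85.7% of all probes called did, and 1 was called (6.67%, against 7.12%).

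Kcne2 (ILMN_2794237), a single-pass auxiliary subunit that is abundant in choroid plexus epithelium, varied widely within groups. It measured 8.16, 7.82, 8.76, 7.75, 8.32, 7.74 and 4.76 in DBA-rich Tg, 5.33, 5.81, 5.04, 5.30, 4.85 and 8.16 in B6-rich Tg and 9.18, 8.27, 5.35 and 9.37 in inbred B6 mice. Every group except the 50% DBA mice thus held both low and high mice. On the 11 arrays where Kcne2 was not detected, the summed intensity of 8 choroid plexus markers was 1402 to 12739, and on the 29 arrays where it was detected 4719 to 51708. Its largest group difference, B6-rich minus SJL-richest Tg at -1.93 (SE 0.64), was not called (adjusted p = 0.138, limma).

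Tg mice were also set against the inbred strain that makes up most of their background, within arrays 17 to 40. This comparison joins the transgene with the replaced share of background, which cannot be told apart. DBA-rich Tg and inbred DBA mice differed on 2 of 92 channel probes (2.17%), against 1.87% of all probes. The Kcnab1 probe ILMN_2618169 was higher in DBA-rich Tg mice, at 7.36, 7.75 and 7.89 (lowest, median, highest) against 7.44, 7.12, 7.14 and 7.11 in inbred DBA mice, with overlap through inbred mouse 1 (log2 change 0.49 with an SE of 0.11, limma adjusted p = 0.0222). The brighter Kcnab1 probes ILMN_1216469 and ILMN_2915671 were not called. Kcnj16 was lower in DBA-rich Tg mice, at 6.67, 6.82 and 7.01 against 7.11, 7.14, 7.42 and 7.44, without overlap (log2 change -0.44 with an SE of 0.10, limma adjusted p = 0.0191). Both calls rested on few inbred mice: 0 channel probes were called without inbred DBA mouse 3 or 4 and 1 without mouse 2. With runs of 8 arrays as a block the Kcnab1 call held, and Kcnj16 was not called (log2 change -0.27, adjusted p = 0.206).

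SJL-rich Tg and inbred SJL mice differed on 18 of 92 channel probes (19.6%), against 15.9% of all probes, 5 higher in Tg mice (5.43%, against 7.35%) and 13 lower (14.1%, against 8.57%). The Tg mice were on arrays 18 to 23 and the inbred mice on later runs of 8, so array run and group cannot be told apart. The median log2 change was -0.02 over channel probes and 0.01 over all tested probes. The largest was Kcnh1, with 9.34, 9.81 and 10.06 in SJL-rich Tg mice against 9.14, 9.28, 9.21 and 9.17 in inbred SJL mice. All Tg mice were higher (log2 change 0.54 with an SE of 0.12, limma adjusted p = 0.00663). The inbred B6 level was 9.93 ± 0.12 (SD, n = 4).

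Kcnu1 was likewise higher in Tg mice (log2 change 0.42) and Kcnj9 lower (-0.50), each with overlap. The Kcnj9 call was lost without inbred SJL mouse 2, 3 or 4 (adjusted p = 0.0559, 0.109 and 0.128), and the Kcnu1 call without mouse 2 (0.0544). SJL minus B6 inbred differences of Kcnh1, Kcnu1 and Kcnj9 were -0.73, -0.56 and 1.28; that comparison shares the inbred SJL arrays with this one, and SJL-rich Tg mice carry 31% B6 background. Scn2b, a sodium channel beta subunit gene, had 10.42, 10.51 and 10.57 in SJL-rich Tg and 10.71, 10.83, 10.83 and 10.96 in inbred SJL mice. The ranges did not overlap (log2 change -0.33 with an SE of 0.07, limma adjusted p = 0.0041). Kcnma1 was at 9.00 ± 0.19 in Tg mice (SD, n = 6) against 9.41 ± 0.11 in inbred mice (SD, n = 4), and 2 of 3 probes of its partner Kcnmb4 were lower too, by log2 changes of -0.31 and -0.28. Kcnq3 (-0.43), Kcnab3 (-0.45), Kcnip1 (-0.45), Kcnj16 (-0.40) and the probe ILMN_2674213 of the calcium beta gene Cacnb1 (-0.48) were lower without overlap. The other tested Cacnb1 probe, ILMN_2603539, was not called. The Kcnk2 probe ILMN_2651369, higher by 0.40, was detected on 3 of 6 Tg arrays and on 0 of 4 inbred arrays. It has no fold above its detection floor. Its call was lost without inbred SJL mouse 1 or 2 (adjusted p = 0.0911 and 0.102, limma), and that of Kcnab3 without mouse 3 (0.0530). The brighter Kcnk2 probe, ILMN_1226055, at a mean of 8.08 in SJL-rich Tg mice, was not called.

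The plot of these 18 probes sets them beside DBA-rich Tg minus inbred DBA. Whether the Tg minus inbred difference depended on background was tested as an interaction, and 0 of 92 channel probes passed with limma, against 0.397% of all probes, with 12 channel probes (13.0%) and 12.2% of all probes at an unadjusted p under 0.05. The lowest adjusted p was 0.168, for Kcnab3, a beta subunit gene.

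**Figure D4:**
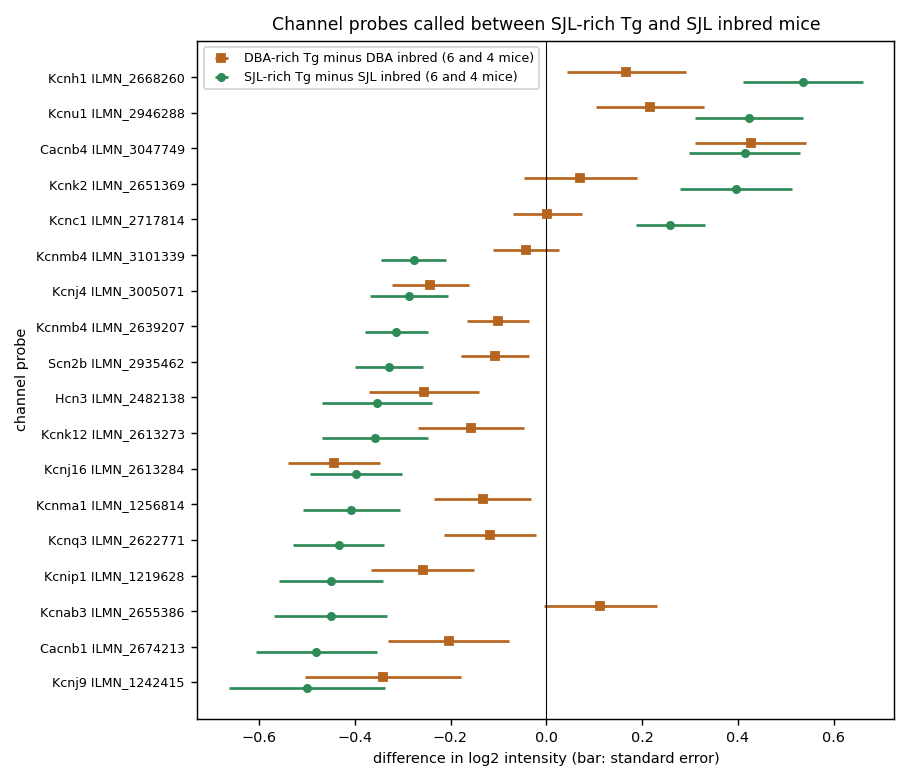
Difference in log2 intensity (horizontal axis, bars are standard errors) of the 18 channel probes called between SJL-rich Tg and inbred SJL mice (circles), beside DBA-rich Tg minus inbred DBA mice for the same probes (squares; 6 Tg and 4 inbred mice in each). The circles lie between -0.50 and 0.54, 13 of them below 0, and of the squares Kcnj16 alone was called.

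The last comparison asked whether channel transcripts follow amyloid load in the 28 Tg mice, with background and array set in the model. The load was the log10 level of amyloid-beta 40 in the guanidine fraction, the poorly soluble pool, and it ranged from 3.86 to 5.49. With limma, 0 of 92 channel probes and 0% of all probes had a slope past 0.05, and 2 channel probes had an unadjusted p under 0.05, as did 604 of all probes. They were Kcnj9, with a slope of -0.68 ± 0.23 log2 units per log10 unit (SE), and the Kcnip2 probe ILMN_2680958, a gene for a protein that binds A-type potassium pores, with 0.32 ± 0.12. The adjusted p was 1.00 for both.

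Genes with more than 1 probe show how far a call depends on the probe. Of the 72 genes, 14 had 2 tested probes and 3 had 3. Among these 17, at least 1 probe was called in 3 genes for DBA against B6, 4 for DBA against SJL, 2 for SJL against B6 and 6 for SJL-rich Tg against inbred SJL mice. Every probe of the gene was called in 1 of these 15 cases, Cacng5 in SJL against B6. The probe sequences and the transcripts they match were not used here.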

How the data were processed

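Hippocampal RNA of 40 mice was measured on 1-colour Illumina arrays. The non-normalized table deposited by the authors gives a signal intensity per probe, with background subtracted as its negative values show; no source used here names the scanner software. Its detection score has the name of a p-value per the file headers; since bright probes score near 1, a detection p was taken as 1 minus the score. The authors' value table gives linear intensity, each column a linear function of 1 column of the other table, with its scaling unstated. Between 41.5% and 50.0% of probes were detected per array; the number of arrays limits the precision.

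Intensities of the deposited table were normalised over 40 arrays by the neqc function (limma 3.58.1, R 4.3.3: normexp, offset 16, quantile, log2). Tests used lmFit and eBayes on log2 values of 13589 probes, with Benjamini-Hochberg adjustment at 0.05, and were checked on simulated data. Gene symbols came from the platform annotation, in which 23978 probes had 1 symbol and 1719 none; Entrez numbers changed none of the 92 channel symbols. Of 40 listed partner genes 28 were measured, each by its brightest probe. Replicates are separate mice, and replicate numbers only name them.

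Named probes were those called in both inbred DBA comparisons, the 6 largest called changes each way in each comparison, 15 measured genes of a fixed list of 23, and other probes of the first kind. Other called probes were named after their values were seen. Members and lists were chosen with earlier results of these data known. Alternatives covered the value table, background correction, filters, variance models, the methods' t-test, undisputed inbred mice, runs of 8 arrays as a block (inferred from the running number, since the files name no slide) and leaving out single mice.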

Additional observations from a re-analysis of the deposited data

Results flagged for a closer look

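Of 175 sets of group values of the named probes, 15 had 1 mouse standing apart from the others by Dixon's 95% criterion; chance flags about 1 in 20 groups. All values are normalised log2 intensity. DBA-rich Tg mouse 1, the only mouse of its group on arrays 1 to 16, stood apart for 4 probes. It was at 14.30 for Kcnab2 (13.82 to 13.92 in the other 6), 6.61 for Kcne1l (6.88 to 7.06), 4.86 for Kcnip1 (5.66 to 6.08) and 8.41 for Kcnma1 (9.14 to 9.40). It entered none of the comparisons of DBA-rich mice in the report other than the amyloid slope.

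Among inbred DBA mice, mouse 3 was at 9.34 for Kcnf1 (8.80 to 8.89 in the others) and mouse 4 at 6.69 for Kcnab3 (6.20 to 6.25). Inbred DBA mouse 1 was at 7.44 for Kcnab1 ILMN_2618169 (7.11 to 7.14) and at 5.06 for Kcnk2 ILMN_2651369 (5.25 to 5.28). Kcnn1 was at 7.28 in inbred SJL mouse 1 (7.49 to 7.53 in the others) and at 7.18 in inbred B6 mouse 3 (6.89 to 6.91). Kcnv1 was at 7.31 in inbred B6 mouse 4 (7.75 to 7.82).

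Among the other Tg mice, B6-rich mouse 1 was at 5.56 for Kcnj6 (6.48 to 6.79 in the others) and at 7.25 for Kcne1l (6.59 to 6.77), B6-rich mouse 6 at 5.22 for Kcnq3 (5.77 to 5.93), and SJL-richest mouse 2 at 6.88 for Kcnj16 (7.05 to 7.11).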

How the results depend on the processing

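The strain assigned to the inbred mice decided most. With the value table read by accession, 0 channel probes were called in each of the 3 inbred pairs and for DBA-rich Tg against inbred DBA, and 2 (Kcnab3 and Kcnk13) for the interaction. These counts come without the share of all probes and do not set channel genes apart from others. Log2 changes then turned sign for DBA against B6 in Cacng5 ILMN_2725698 (-0.12), Kcnh1 (0.014), Kcnj16 (-0.22) and Kcnu1 (0.088), for DBA against SJL in Cacna1b ILMN_2770304 (-0.072), Kcnf1 (0.043), Kcnh3 (-0.10) and Kcnab2 (0.032), and for SJL against B6 in Cacng5 ILMN_2812240 (-0.33), Kcne1l (-0.010) and Kcnj6 (0.040). This setting puts 6 of 12 mice in another strain. The 6 undisputed inbred mice, with fewer mice, gave 7 called channel probes for DBA against B6, 3 higher and 4 lower (3.38% and 3.88% of all probes). For DBA against SJL there were 5, 2 higher and 3 lower (3.19% and 3.37% of all). For SJL against B6 there were 4, 3 higher and 1 lower (2.55% and 3.52% of all). Of 32 called values of named probes in these pairs 12 were kept there, and none turned sign; Kcng4 in both comparisons with B6, Cacng7 for DBA against SJL and the Kcnc1 probe ILMN_1239595 for SJL against B6 were called there only.

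Counts in this paragraph are of called channel probes, without the share of all probes under the same setting. They do not tell whether channel genes changed differently from other genes. The methods' t-test gave 7 for DBA against SJL and 9 for SJL against B6 at 0.05. At 0.001 and 1.5-fold it gave 1 for DBA against B6 and 0 for the other inbred pairs. With runs of 8 arrays as a block the count was 7 for SJL against B6, 1 for DBA-rich against SJL-rich Tg, 0 for B6-rich against SJL-richest Tg and 1 for DBA-rich Tg against inbred DBA; the cause was not tested. Probes detected on all 40 arrays left 2 for DBA-rich against SJL-rich Tg, with 63 channel probes tested. Trended and robust variances gave 1 for 50% DBA against SJL-richest Tg. Leaving out single mice gave 9 to 12 for DBA against B6, 8 to 10 for DBA against SJL, 7 to 11 for SJL against B6, 0 to 3 for DBA-rich Tg against inbred DBA, 13 to 15 for SJL-rich Tg against inbred SJL, 0 to 1 for 50% DBA against SJL-richest Tg and 0 throughout for the interaction. No paired analysis was possible because the replicate numbers follow the accession order and the labels give none.

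With no background correction 47 of 50 called values of named probes were kept, and with no filter 42 of 50; none turned sign in either. Probes near the detection limit, such as Kcns1, Kcnj6, Kcnq3 and Cacna1b, have differences compressed by the offset of 16, and strain differences of genes with no tested probe were not measurable here.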
